A study of Homo sapiens with 8 samples.

Results

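The genes of glycolysis and of the hypoxia response were followed across the M1, M2, M3 and M4 cells of the MCF10A progression series. The list holds 37 genes, taken by name from the 56632 genes of the deposited count table, of which 29419 had a count in at least 1 library. They comprise 17 glycolytic enzymes, 4 glucose and lactate transporters, 3 regulators of glycolytic flux, 11 other hypoxia targets and 2 HIF subunits. All 37 were found in the table under 1 identifier each, and all 37 passed the filter on low counts among the 18431 genes tested.

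RNA-seq had been performed on poly A+ RNA in 2 biological replicates per line, from acini grown in Matrigel for 8 days. M1 is the non-tumorigenic, immortalised mammary epithelial line MCF10A. M2 (MCF10AT1k.cl2) was obtained from M1 by transfection with activated T24-HRAS and passage as a xenograft, and M3 (MCF10Ca1h) and M4 (MCF10CA1a.cl1) come from carcinomas that arose in xenografts of M2, so that M2, M3 and M4 all descend from the HRAS-transfected cells. On xenografting, M2 gives premalignant lesions, M3 tumours of low grade, and M4 tumours of high grade, and M4 cells can seed the lung from the circulation. The medium of all lines contained horse serum, hydrocortisone, cholera toxin and insulin. Cultures of M1 and M2 received EGF (10 ng/ml) and those of M3 and M4 did not, so that line and medium cannot be told apart where either carcinoma-derived line is set against M1. The comparisons of M2 with M1 and of M4 with M3 are each within 1 medium.

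Glycolysis converts glucose to pyruvate. Glucose enters through GLUT transporters, is trapped by hexokinase, split and oxidised to pyruvate, and when pyruvate is reduced by lactate dehydrogenase the lactate leaves through monocarboxylate transporters. HIF, a heterodimer of an oxygen-labile alpha subunit (HIF1A or EPAS1) and ARNT, binds hypoxia response elements and raises transcription of most of these genes, together with targets that act on blood supply, pH, mitophagy and collagen. The alpha subunits are controlled mainly by prolyl hydroxylation and degradation of the protein, a step that RNA levels do not measure.

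The 8 libraries held 69669945 to 107350288 counts, and mitochondrially encoded genes took 2.63% to 6.85% of them. Levels are given as CPM, library-scaled counts obtained with edgeR's TMM factors, and differences as log2 fold changes from edgeR's quasi-likelihood test. Calls required an adjusted p under 0.05, with Benjamini-Hochberg adjustment over all 18431 genes. All 8 libraries shared 1 estimate of the spread, so an SE or p is not that of the 2 compared lines alone. The replicates of M2 were much closer to each other than those of other lines, with a coefficient of variation of 0.0580 against 0.377 in M1, 0.307 in M3 and 0.271 in M4, although their counts still differed by more than sampling (chi-square per degree of freedom 6.65). The defining epithelial genes were present in every library, with KRT5 at 2837 to 9190 CPM and EPCAM at 49.9 to 199 CPM. The endothelial markers CDH5 and VWF summed to at most 0.326 CPM, and the leukocyte marker PTPRC had at most 0.0366 CPM. CD3E and the fibroblast collagen COL1A2 were at 0 throughout. COL1A1, another fibroblast collagen, was present in every library, at 6.07 to 25.5 CPM. Other markers moved with the lines. CD14, the third gene of the immune list, had 24.6 and 14.3 CPM in M1, 4.54 and 4.55 in M2, 5.62 and 2.40 for M3, and 2.03 and 1.06 for M4, and was called lower in M3 and M4 against M1. DCN, a fibroblast proteoglycan, had 34.1 and 1.62 CPM in M1, 60.2 and 58.6 in M2, and at most 2.11 in M3 and M4. The 4 basal markers summed to 9258 and 7087 CPM in M1 and to 4305 and 3820 in M4, with 3 called lower in M4 against M1 and all 4 against M3. Of the 4 epithelial markers, 3 were called higher in M4 against M1 and 2 against M3. The part of these differences in the results was not tested.

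The assignment of a pair of libraries is in doubt. In the study's supplementary expression table, the column for M2 replicate 1 matches the library labelled M1 replicate 2, and the column for M1 replicate 2 matches the library labelled M2 replicate 1. In the counts, the libraries labelled M1 were closest to each other (Spearman's rho 0.971 across 13495 genes), as were those labelled M2 (rho 0.998), while rho between an M1 and an M2 library was 0.959 to 0.963. In the numbered names of the deposited columns, the labels run M1, M1, M3, M4, M2, M2, M3, M4. With the pair exchanged, they would run M1 to M4 for replicate 1 and then M1 to M4 for replicate 2. Which assignment is right is not settled here. The sample labels are used throughout. With the pair exchanged, edgeR called 0 members in M2 and in M3 against M1 (0 and 3 at an unadjusted p under 0.05; DESeq2 was not run on this assignment), and CA12 alone was called in M4 against M1 and in M4 against M3, where no M1 or M2 library is compared. The fold changes moved too. In M2 against M1 the log2 fold changes of the called HK2, LDHA, P4HA1 and BNIP3 were 0.07, 0.12, 0.15 and 0.08 with the pair exchanged, that of EPAS1 was -0.36, and 11 of the 37 members reversed in sign, SLC16A3 among them (-0.08). In M3 against M1, 4 reversed, none of them called, and HK2 (1.35) and SLC16A3 (1.32) were lower than with the labels but above 1. In M4 against M1, 11 reversed, none of them called, and in M4 against M3 none did. The values of M1 and M2, and not only the counts of calls, are to be read with this doubt.

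The glycolytic enzymes together took 1.82% and 1.96% of all counts in the M1 libraries (replicates 1 and 2), 3.10% and 3.07% in those of M2, 3.58% and 2.49% in those of M3, and 2.05% and 1.91% in M4. Both M2 and both M3 libraries therefore lay above every M1 and M4 library. In the 11 other hypoxia targets the shares were 0.0722% and 0.0689% in M1, 0.151% in each M2 library, 0.266% and 0.149% in M3, and 0.0771% and 0.0829% in M4. Per kilobase of exon, GAPDH, the enzyme that oxidises glyceraldehyde 3-phosphate, had the highest mean level of the members in each line, with 2382 CPM per kb in M1, 3563 and 3905 in M2 and M3, and 1985 in M4. The neuronal enolase ENO2 was at 0.141 CPM per kb in M1 and 3.11 in M3, far below the ubiquitous ENO1 at 559 and 864. In bulk RNA, a change in the share of cells that express a gene and a change in RNA per cell cannot be told apart.

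**Figure D1:**
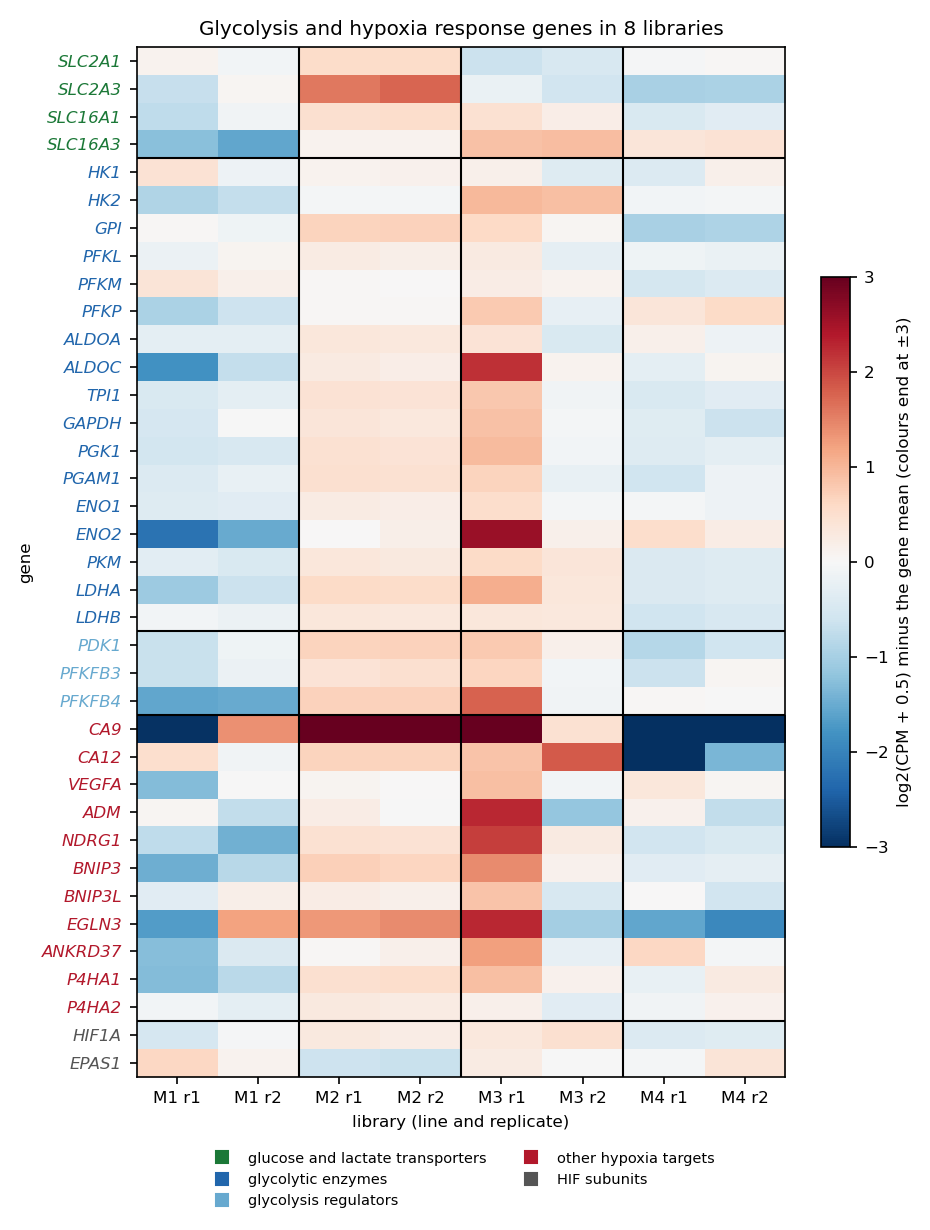
Heatmap of the 37 members (rows, coloured by group) in the 8 libraries (columns), as log2(CPM + 0.5) minus the mean of the gene over all libraries. Most rows are above their mean in both M2 libraries and in M3 replicate 1, and M3 replicate 2 is paler than M3 replicate 1 in nearly all enzymes and hypoxia targets.

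Promoter sequences from RefSeq (GRCh38.p14, 250 bases before to 50 after the annotated start) were held for 32 of the 37 members. The core letters bound by HIF, ACGTG or GCGTG, were searched on both strands, where a palindromic CACGTG counts as a match on each. At least 1 match was present in 23 of the 32 (71.9%), in 12 of 17 enzymes and in 6 of 8 other hypoxia targets, against 48.4% of all 27305 promoters held. ACGTG was present in 37.5% of the members and in 21.6% of all promoters. The promoters held were not limited to the genes tested here and were not matched to the members in base composition, so the shares are not a test of enrichment. A match is a description of the letters and not a site, and HIF sites can lie outside this window. HK2, P4HA1 and SLC16A3 were the members called against M1 in each of M2, M3 and M4. LDHA and CA9 were added by choice. For each of these genes, the 250 bases before the start are shown. Each is written in the direction of the gene, with matches in capitals (CACGT is ACGTG and CACGC is GCGTG on the opposite strand).
HK2 (GRCh38.p14, chr2:74833877-74834126, plus strand): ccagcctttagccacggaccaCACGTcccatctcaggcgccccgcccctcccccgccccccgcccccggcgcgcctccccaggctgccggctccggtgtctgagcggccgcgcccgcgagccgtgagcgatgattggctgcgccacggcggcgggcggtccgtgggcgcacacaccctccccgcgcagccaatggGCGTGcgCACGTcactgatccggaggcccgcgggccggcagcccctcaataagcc
P4HA1 (GRCh38.p14, chr10:73096867-73097116, minus strand): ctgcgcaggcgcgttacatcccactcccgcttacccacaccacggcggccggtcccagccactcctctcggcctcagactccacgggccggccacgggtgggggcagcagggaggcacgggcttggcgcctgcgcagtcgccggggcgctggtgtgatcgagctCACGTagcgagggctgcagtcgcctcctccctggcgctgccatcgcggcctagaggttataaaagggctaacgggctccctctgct
SLC16A3 (GRCh38.p14, chr17:82228185-82228434, plus strand): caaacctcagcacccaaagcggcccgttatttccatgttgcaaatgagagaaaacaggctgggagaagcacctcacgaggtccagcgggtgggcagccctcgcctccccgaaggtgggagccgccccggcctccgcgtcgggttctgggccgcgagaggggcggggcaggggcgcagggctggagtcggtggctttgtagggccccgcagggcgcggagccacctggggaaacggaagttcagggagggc
LDHA (GRCh38.p14, chr11:18394313-18394562, plus strand): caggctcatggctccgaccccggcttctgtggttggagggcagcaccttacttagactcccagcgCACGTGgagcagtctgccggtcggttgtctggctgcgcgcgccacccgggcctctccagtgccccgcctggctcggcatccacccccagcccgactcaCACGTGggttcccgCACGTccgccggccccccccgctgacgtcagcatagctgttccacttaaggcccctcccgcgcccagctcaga
CA9 (GRCh38.p14, chr9:35673678-35673927, plus strand): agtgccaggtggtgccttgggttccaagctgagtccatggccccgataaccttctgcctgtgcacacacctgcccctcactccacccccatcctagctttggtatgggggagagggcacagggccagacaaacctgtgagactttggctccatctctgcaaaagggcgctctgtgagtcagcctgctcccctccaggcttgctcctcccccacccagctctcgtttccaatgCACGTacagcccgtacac
The HK2 window held 3 matches, P4HA1 and CA9 held 1 each, and LDHA held 5 in the bases shown and 1 after the start, while no match was present in that of SLC16A3.

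The comparison of M2 with M1 asks what accompanied activated HRAS and passage as a xenograft in the presence of EGF. Of the 37 members, 5 were called higher in M2 (against 3.37% of all genes tested) and EPAS1 was called lower (against 1.46%). The 5 were the lactate exporter SLC16A3, hexokinase HK2, lactate dehydrogenase LDHA, the collagen prolyl hydroxylase P4HA1 and the mitophagy receptor BNIP3. With a fold above 2 also required, 5 members were called, against 3.37% of all genes. Both M2 libraries lay above both M1 libraries in 32 of the 37 members, against 30.4% of all genes tested, so many members differed in 1 direction without passing the test. The median log2 fold change was 0.73 for the enzymes and 0.95 for the other hypoxia targets, against -0.04 for all genes.

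SLC16A3 (MCT4, chromosome 17 of GRCh37 from 80175810 to 80219005) had 143 and 116 CPM in M1 and 371 CPM in each M2 library. The groups were far apart, with a log2 fold change of 1.52 (SE 0.15, adjusted p = 0.00605 from edgeR). Exons of SLC16A3 share 482 bp with CSNK1D on the opposite strand, and whether counting used strand is not stated. LDHA, which reduces pyruvate to lactate, had 1243 and 1683 CPM in M1 against 3882 and 3874 in M2 (log2 fold change 1.41, SE 0.27, adjusted p = 0.0310 from edgeR). P4HA1, the catalytic subunit of collagen prolyl 4-hydroxylase, had 55.4 and 77.8 CPM in M1 compared with 193 and 197 in M2, a log2 fold change of 1.55 (SE 0.295, adjusted p = 0.0289 from edgeR). No M1 library of LDHA or P4HA1 came near the M2 range. BNIP3 had 24.5 and 38.3 CPM in M1 and 114 and 107 in M2 (log2 fold change 1.81, SE 0.396, adjusted p = 0.0459 from edgeR). HK2, the inducible hexokinase, had 54.6 and 62.1 CPM in M1 compared with 98.1 and 97.8 in M2, a smaller change (log2 fold change 0.75, SE 0.13, adjusted p = 0.0190 from edgeR) with little spread. Without M1 replicate 1, SLC16A3 alone of these stayed called, BNIP3 was also lost without M1 replicate 2 (adjusted p = 0.0550 from edgeR), and with either M2 library left out edgeR called none of the 37 members (15 at an unadjusted p under 0.05), although the log2 fold changes of the 5 genes in these fits were 0.66 (HK2) to 2.18 (BNIP3).

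The alpha subunits of HIF had opposite signs. EPAS1 (HIF-2 alpha) had 239 and 166 CPM in M1 and 101 and 98.0 in M2, and was called lower (log2 fold change -1.02, SE 0.22, adjusted p = 0.0440 from edgeR). Its M1 libraries differed by more than its M2 libraries, and the log2 fold change was -0.74 without M1 replicate 1 (adjusted p = 0.118 from edgeR). HIF1A had 198 and 273 CPM in M1 and 342 and 329 in M2, a log2 fold change of 0.51 that did not pass the test (SE 0.18, adjusted p = 0.139 from edgeR). The ratio of HIF1A to EPAS1 per exon base was 1.18 and 2.32 in M1 and 4.79 and 4.75 in M2.

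Among members that did not pass, the pH regulator CA9 (carbonic anhydrase IX) had 1.60 and 41.7 CPM in the M1 libraries and 132 and 133 in M2. The M1 replicates alone lay far apart in it, and its log2 fold change of 2.61 had an SE of 1.36 (adjusted p = 0.299 from edgeR). Without M1 replicate 2 it was 6.38 and called (adjusted p = 0.0482 from edgeR), and without M1 replicate 1 it was 1.67. SLC2A3 and SLC16A1 were also called without M1 replicate 2 (log2 fold changes 4.37 and 1.26). The angiogenic factor VEGFA, at 40.8 and 101 CPM in M1 and 107 and 103 in M2, differed by 0.56 on the log2 scale (adjusted p = 0.492 from edgeR), with 0.05 without M1 replicate 1 and 1.36 without M1 replicate 2. For the glucose transporter SLC2A1 (284 and 246 CPM in M1, 388 and 387 in M2) the log2 fold change was 0.55 (adjusted p = 0.0692 from edgeR). PGK1, an ATP-forming enzyme, had 682 and 714 CPM in M1 compared with 1360 and 1331 in M2 (log2 fold change 0.95, adjusted p = 0.115 from edgeR). SLC2A1 and PGK1 thus had groups that did not overlap and a p that missed the threshold, which does not show that they were alike.

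**Figure D2:**
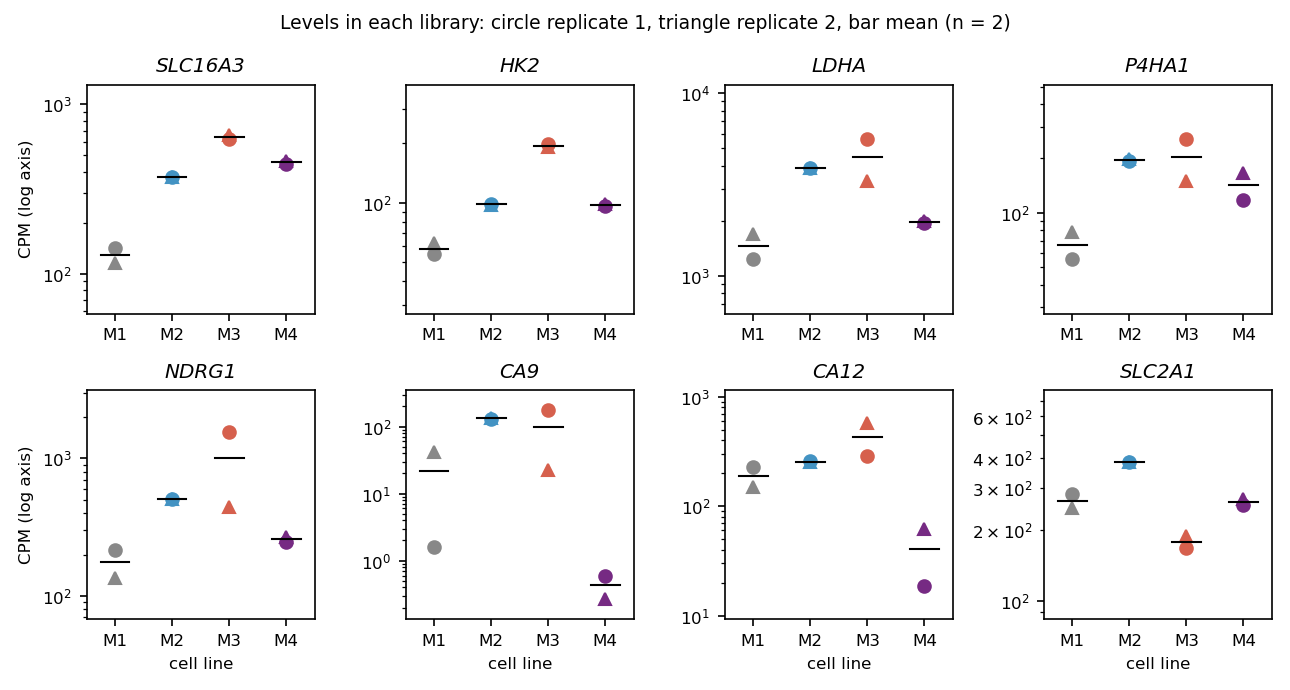
CPM (log axis) of 8 members in each line, with circles for replicate 1, triangles for replicate 2 and bars for the mean of the 2. SLC16A3 and HK2 have close replicates in every line, whereas NDRG1 and CA9 differ between the replicates of M3, and CA9 also between those of M1.

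The comparison of M3 with M1 sets the line that forms well-differentiated carcinomas, without EGF, against the parental line. Here 15 of the 37 members were called higher (against 12.9% of all genes tested) and 1, SLC2A1, lower (against 8.33%), and 11 were called with a fold above 2 (against 13.5%). The enzymes accounted for 7 of the 15 higher calls (HK2, PFKP, ALDOC, PGK1, ENO2, PKM and LDHA), the transporters for SLC16A1 and SLC16A3, the regulators for PDK1 and PFKFB4, the other hypoxia targets for NDRG1, BNIP3 and P4HA1, and the HIF subunits for HIF1A. Both M3 libraries lay above both M1 libraries in 23 members, against 30% of all genes. The median log2 fold change was 0.71 for the enzymes and 1.56 for the other hypoxia targets, against -0.02 for all genes, and the median SE was 0.28 and 0.54. The larger median of the hypoxia targets thus came with fewer calls, 3 of 11 against 7 of 17. M3 and M1 overlapped in 6 of these targets and in 5 of the enzymes. M3 replicate 1 carried much of the larger median. Without it, ADM, EGLN3, BNIP3L and P4HA2 were below 0, at -0.97, -1.62, -0.43 and -0.15. CA9, VEGFA and ANKRD37 were then at 0.04, 0.44 and 0.60, and P4HA1, BNIP3, NDRG1 and CA12 at 1.18, 1.27, 1.34 and 1.62.

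The changes with the least spread were those of SLC16A3 and HK2. SLC16A3 had 628 and 655 CPM in M3, its highest level of any line, and a log2 fold change over M1 of 2.31 (SE 0.16, adjusted p = 0.000337 from edgeR). HK2 had 199 and 191 CPM in M3, also above every other library, with a log2 fold change of 1.74 (SE 0.13, adjusted p = 0.000425 from edgeR). These 2, LDHA and P4HA1 were the members called in all 16 alternatives other than the exchange. LDHA was at 5574 and 3322 CPM (log2 fold change 1.60, SE 0.275, adjusted p = 0.00716 from edgeR), and P4HA1 at 257 and 150 CPM (log2 fold change 1.61, SE 0.296, adjusted p = 0.00910 from edgeR). In both genes M3 replicate 1 was the higher, on either side of the M2 libraries.

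In several called members M3 replicate 1 set the size of the change. NDRG1, a stress-induced gene of the HIF response, had 217 and 136 CPM in M1 compared with 1569 and 444 in M3. Its log2 fold change of 2.51 (SE 0.54, adjusted p = 0.0184 from edgeR) was 1.34 without M3 replicate 1 and was not called without M1 replicate 2 (adjusted p = 0.0698 from edgeR). PFKFB4, which sets the level of the phosphofructokinase activator fructose 2,6-bisphosphate, had 8.96 and 9.31 CPM in M1 and 94.9 and 25.3 in M3. Both M3 libraries were above M1, and the log2 fold change of 2.72 (SE 0.53, adjusted p = 0.0132 from edgeR) was 1.48 without M3 replicate 1. The lowly expressed isoenzymes behaved alike in this respect. ENO2 had 0.338 and 0.866 CPM in M1 and 22.9 and 3.78 in M3 (log2 fold change 4.46, SE 0.87, adjusted p = 0.0120 from edgeR, and 2.65 without M3 replicate 1), and ALDOC had 7.42 and 16.7 against 128 and 29.5 (log2 fold change 2.71, SE 0.67, adjusted p = 0.0299 from edgeR). ALDOC was at 1.30 without M3 replicate 1 and lost its call (adjusted p = 0.0918 from edgeR), and ENO2 was at 3.93 without M1 replicate 1 (adjusted p = 0.0537 from edgeR).

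BNIP3, at 185 and 75.4 CPM in M3, had a log2 fold change of 2.05 (SE 0.399, adjusted p = 0.0118 from edgeR), or 1.27 without M3 replicate 1. PFKP, the platelet-type phosphofructokinase, had 165 and 206 CPM in M1 compared with 547 and 269 in M3 (log2 fold change 1.14, SE 0.305, adjusted p = 0.0352 from edgeR), or 0.54 without M3 replicate 1 (adjusted p = 0.0842 from edgeR). PGK1 was at 1940 and 942 CPM in M3, a log2 fold change of 1.05 (SE 0.302, adjusted p = 0.0444 from edgeR) that was 0.44 without M3 replicate 1. Of the 10 members with the largest called changes, all 10 were higher in M3. Apart from PGK1, the other calls ran from -0.58 for SLC2A1 to 0.89 for PDK1, a kinase that inhibits pyruvate dehydrogenase. Besides the losses named above, calls ended without M1 replicate 1 for PFKP, ALDOC, PGK1, SLC2A1, SLC16A1, PDK1, PFKFB4 and BNIP3, without M1 replicate 2 for PFKP, PGK1 and PKM, without M3 replicate 1 for PGK1, SLC2A1, SLC16A1, PDK1 and HIF1A, and without M3 replicate 2 for SLC16A1 and HIF1A. Leaving out either M2 library, which is not compared here, also ended calls. With only M1 and M3 fitted, 4 members were called.

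SLC2A1 (GLUT1) was the only member called lower in M3, where 32 of the 37 had a log2 fold change above 0. It had 284 and 246 CPM in M1 and 168 and 187 in M3, and the groups did not overlap (log2 fold change -0.58, SE 0.14, adjusted p = 0.0254 from edgeR). M3 held the lowest SLC2A1 levels of any line and M2 the highest. HIF1A had 351 and 390 CPM in M3 and was called higher (log2 fold change 0.65, SE 0.18, adjusted p = 0.0353 from edgeR), with 0.45 without M1 replicate 1 (adjusted p = 0.121 from edgeR). EPAS1, at 185 and 154 CPM in M3, overlapped with M1 (log2 fold change -0.25, adjusted p = 0.441 from edgeR). CA9 (175 and 22.1 CPM in M3) and VEGFA (189 and 95.6) also overlapped with M1, with log2 fold changes of 2.19 and 1.01 that were not called (adjusted p = 0.280 and 0.150 from edgeR). Both were called without M1 replicate 2, CA9 at 5.95 and VEGFA at 1.81 (adjusted p = 0.0287 and 0.0258 from edgeR), and were at 0.04 and 0.44 without M3 replicate 1.

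**Figure D3:**
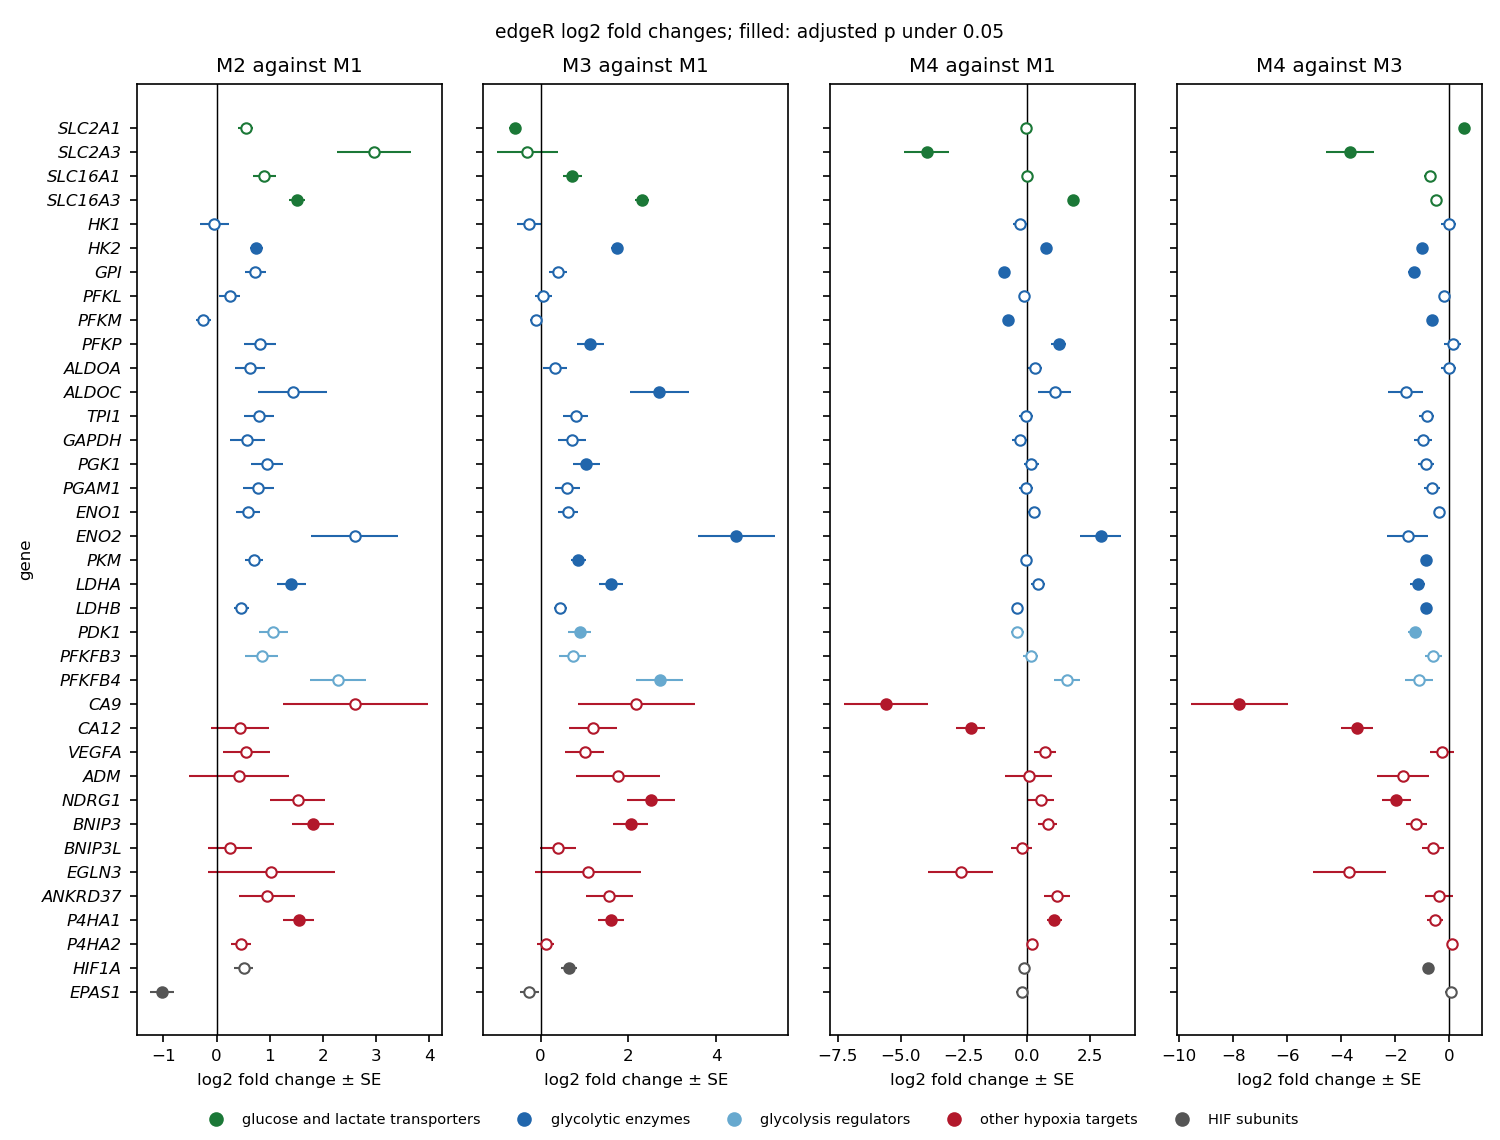
Log2 fold change ± SE of each member in the 4 comparisons, with filled points for an adjusted p under 0.05 from edgeR (the horizontal axes differ between panels). Against M1, the called points of M2 and M3 lie mostly to the right, those of M4 on both sides, and 12 of the 13 called points of M4 against M3 lie to the left.

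Within M3 the replicates stood apart in these genes. On the scale of log2(CPM + 0.5), all 17 enzymes and 10 of the 11 other hypoxia targets were higher in M3 replicate 1, with a median difference of 0.75 for the enzymes and 1.34 for the hypoxia targets, against 0.00 for all genes tested. A difference of more than 2-fold was seen in 4 enzymes and 7 hypoxia targets, and in 4.06% of all genes. The vasodilator ADM (38.2 and 3.09 CPM), the HIF prolyl hydroxylase EGLN3 (22.6 and 1.87 CPM) and CA9 (175 and 22.1 CPM) differed most. CA12, a membrane carbonic anhydrase, was the exception with 288 and 573 CPM. HIF1A was higher in replicate 2 (351 and 390 CPM), and HK2, SLC16A3 and LDHB (1298 and 1284 CPM) hardly differed.

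In M1 the spread lay in the hypoxia targets more than in the enzymes. The median absolute difference between the M1 replicates was 0.67 on the same log2 scale for the targets, 0.20 for the enzymes and 0.24 for all genes. CA9 (1.60 and 41.7 CPM) and EGLN3 (1.00 and 10.6 CPM) were higher in M1 replicate 2, and ADM (7.84 and 4.29 CPM) and NDRG1 in replicate 1. In M4 the medians were 0.51, 0.11 and 0.20, and in M2 they were 0.05, 0.03 and 0.08. The order of targets over enzymes held in each line as a description, since genes of 1 library are not independent. M3 replicate 1 had 87747932 counts with 2.63% mitochondrial, replicate 2 had 86382384 with 3.34%, and their 10 proliferation genes summed to 1903 and 1698 CPM. Whether these played a part in the difference was not tested.

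**Figure D4:**
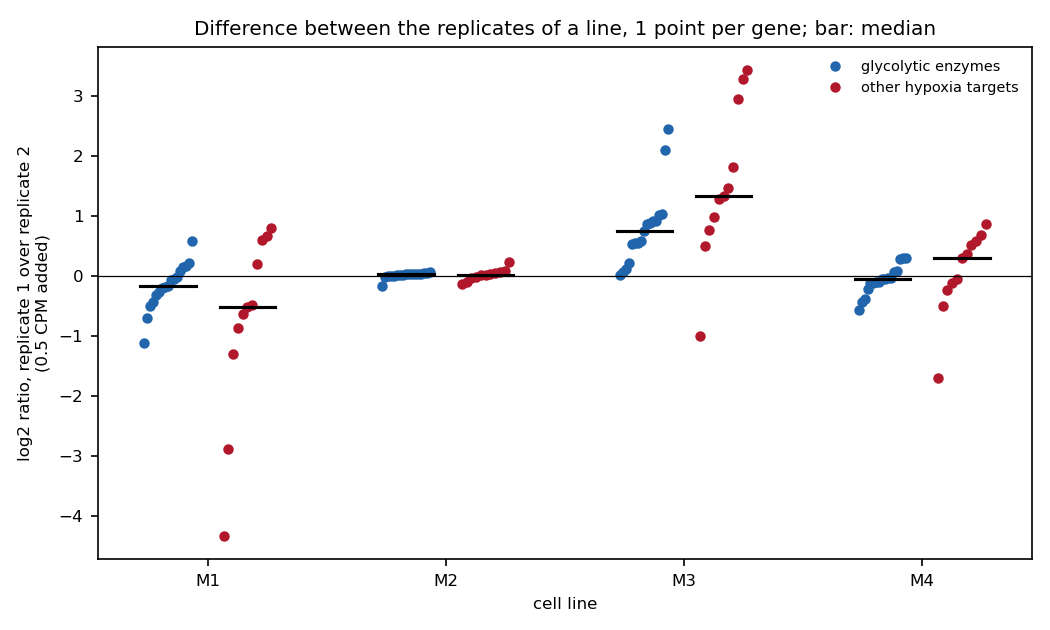
Log2 ratio of replicate 1 over replicate 2 (0.5 CPM added) within each line, with 1 point per gene for the 17 enzymes and the 11 other hypoxia targets and bars for medians. Points of M2 lie close to 0, those of M3 mostly above it, and the hypoxia targets are more widely scattered than the enzymes in M1, M3 and M4.

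The comparison of M4 with M1, the one the study centred on, gave no common direction. Of the 37 members, 5 were called higher (against 15.6% of all genes tested) and 5 lower (against 15.8%), and 7 with a fold above 2 (against 20.7%), shares near or under the background. Both M4 libraries lay above both M1 libraries in 15 members (against 33.5% of all genes) and below them in 6 (against 33.9%). The higher calls were SLC16A3, HK2, PFKP, ENO2 and P4HA1, and the lower calls were CA9, SLC2A3, CA12, GPI and PFKM. The median log2 fold change was -0.02 for the enzymes and 0.21 for the other hypoxia targets, against -0.02 for all genes.

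SLC16A3 was at 443 and 465 CPM in M4, above both M1 and both M2 libraries (log2 fold change over M1 1.81, SE 0.155, adjusted p = 0.000335 from edgeR). HK2 was at 96.3 and 98.5 CPM, a log2 fold change of 0.74 (SE 0.13, adjusted p = 0.00451 from edgeR), and P4HA1 at 117 and 166 CPM, a log2 fold change of 1.09 (SE 0.29, adjusted p = 0.0256 from edgeR). P4HA1 lost its call without M1 replicate 1 (0.88) or without M4 replicate 2 (0.83). PFKP had 410 and 476 CPM in M4 against 165 and 206 in M1 (log2 fold change 1.26, SE 0.306, adjusted p = 0.0181 from edgeR), while PFKM, the muscle-type isoenzyme, had 84.5 and 91.6 against 159 and 136 (log2 fold change -0.74, SE 0.14, adjusted p = 0.00591 from edgeR). The ranges of the 2 isoenzymes were separate in opposite directions. PFKM shares 516 bp of exon with SENP1 on the opposite strand. ENO2, at 5.11 and 4.04 CPM, had a log2 fold change of 2.92 (SE 0.82, adjusted p = 0.0309 from edgeR), which was not called when any of the 4 libraries was left out (2.42 to 3.75).

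GPI, which isomerises glucose 6-phosphate, had 803 and 713 CPM in M1 compared with 396 and 410 in M4, a log2 fold change of -0.91 (SE 0.20, adjusted p = 0.0129 from edgeR). No other glycolytic enzyme was called lower except PFKM. CA9 had 0.599 and 0.269 CPM in M4, from 68 and 21 counts, against 1.60 and 41.7 CPM in M1. The M4 libraries were below both M1 libraries, and the log2 fold change of -5.59 (SE 1.66, adjusted p = 0.0394 from edgeR) was -1.82 without M1 replicate 2 (adjusted p = 0.305 from edgeR), so its size rests on that library. CA9 shares 571 bp of exon with ARHGEF39 on the opposite strand. CA12 had 226 and 150 CPM in M1 compared with 18.6 and 61.7 in M4 (log2 fold change -2.23, SE 0.57, adjusted p = 0.0242 from edgeR). All M4 values of CA12 were under those of every other line, and the log2 fold change was -1.60 without M4 replicate 1 (adjusted p = 0.0563 from edgeR) and -3.32 without M4 replicate 2.

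The glucose transporter SLC2A3 (GLUT3) was barely expressed, with 11 and 47 counts in the M1 libraries, 263 and 207 in those of M2, 31 and 16 in those of M3 and 2 in each M4 library. Over both libraries the level in M1 was 16.9 times that in M4 (95% exact interval 6.24 to 64.0, counting error only), and edgeR called it lower in M4 (adjusted p = 0.0131), but not without M1 replicate 2 (adjusted p = 0.0551 from edgeR). Calls in M4 also ended without M1 replicate 1 for PFKP and CA12, without M4 replicate 1 for GPI, PFKP, SLC2A3 and CA9, and without M4 replicate 2 for GPI, PFKP, SLC2A3 and CA9. Leaving out either M2 library ended calls as well. Processed pseudogenes of SLC2A3 held 734% of its own counts, so its counts are uncertain. In M4 LDHA (1955 and 1998 CPM) and PGK1 (759 and 811) lay above M1 without passing the test, at log2 fold changes of 0.43 and 0.17 (adjusted p = 0.256 and 0.699 from edgeR) that were -0.37 and -0.38 with the doubted pair exchanged. VEGFA, at 129 and 105 CPM, differed from M1 by 0.72 (adjusted p = 0.257 from edgeR), with 1.52 and a call without M1 replicate 2 (adjusted p = 0.0351 from edgeR) and 0.23 without M1 replicate 1. SLC2A1, at 254 and 268 CPM, differed by -0.02 (adjusted p = 0.926 from edgeR). HIF1A, at 212 and 219 CPM, and EPAS1, at 148 and 203, overlapped with M1 (log2 fold changes -0.13 and -0.21, adjusted p = 0.618 and 0.510 from edgeR).

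M4 was also compared with M3, a contrast between carcinoma-derived lines that were both grown without EGF. In M4, 12 of the 37 members were called lower (against 9.72% of all genes tested) and 1, SLC2A1, higher (against 7.05%), and 8 were called with a fold above 2 (against 10.3%). The lower calls comprised 6 enzymes (HK2, GPI, PFKM, PKM, LDHA and LDHB), SLC2A3, PDK1, the hypoxia targets CA9, CA12 and NDRG1, and HIF1A. Both M4 libraries lay below both M3 libraries in 21 members, against 31.5% of all genes. The median log2 fold change was -0.85 for the enzymes and -1.23 for the other hypoxia targets, against -0.02 for all genes. The median of the targets depended on M3 replicate 1. Without that library, ADM, ANKRD37, P4HA2, VEGFA and BNIP3L were above 0, at 1.03, 0.59, 0.35, 0.28 and 0.23. P4HA1 and BNIP3 were then at -0.09 and -0.45, and NDRG1, EGLN3 and CA9 at -0.78, -0.997 and -5.63. CA12 stayed at -4.52 to -2.80 with any 1 M3 or M4 library left out. A larger fall in the targets than in the enzymes is thus not shown without M3 replicate 1. Without M3 replicate 1, the library with the high hypoxia targets, 6 members were called, and without M3 replicate 2, 22 were. Leaving out either M2 library also ended calls, although none is compared here, as all libraries share 1 estimate of the spread. With only M3 and M4 fitted, 7 were called. Without M4 replicate 1 only HK2 and CA12 stayed called, and without M4 replicate 2 only these and GPI. HIF1A was also lost without M3 replicate 2, and PFKM without M3 replicate 1.

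HK2 and CA12 were the members called in all 16 alternatives other than the exchange. HK2 was at 199 and 191 CPM in M3 and at 96.3 and 98.5 in M4, a log2 fold change of -1.003 (SE 0.126, adjusted p = 0.00406 from edgeR). CA12 was at 288 and 573 CPM in M3 and at 18.6 and 61.7 in M4 (log2 fold change -3.42, SE 0.60, adjusted p = 0.0125 from edgeR). The lines did not overlap, and the change was -2.80 without M4 replicate 1 and -4.52 without M4 replicate 2. GPI (1190 and 814 CPM in M3, 396 and 410 in M4) had a log2 fold change of -1.31 (SE 0.205, adjusted p = 0.00781 from edgeR). PKM, pyruvate kinase, was at 4791 and 4133 CPM in M3 and at 2377 and 2472 in M4, and LDHB at 1298 and 1284 against 686 and 742. Their log2 fold changes were -0.88 and -0.85 (adjusted p = 0.0160 and 0.0107 from edgeR), with separate groups in both.

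LDHA, at 5574 and 3322 CPM in M3 against 1955 and 1998 in M4, had a log2 fold change of -1.17 (SE 0.27, adjusted p = 0.0267 from edgeR), or -0.75 without M3 replicate 1 (adjusted p = 0.0593 from edgeR). NDRG1, at 1569 and 444 CPM against 248 and 270, had -1.96 (SE 0.53, adjusted p = 0.0461 from edgeR), or -0.78 without M3 replicate 1 (adjusted p = 0.113 from edgeR). CA9 was at 175 and 22.1 CPM in M3 against 0.599 and 0.269, with a log2 fold change of -7.78 (SE 1.79, adjusted p = 0.0284 from edgeR), or -5.63 without M3 replicate 1 (adjusted p = 0.0895 from edgeR). In these 3 genes both M4 libraries were below both M3 libraries, and the size of the difference, or its call, depended on M3 replicate 1. PDK1 was at 28.6 and 18.3 CPM against 8.80 and 10.6 (log2 fold change -1.27, SE 0.27, adjusted p = 0.0199 from edgeR), and -0.92 without M3 replicate 1 (adjusted p = 0.0790 from edgeR). HIF1A had 351 and 390 CPM in M3 and 212 and 219 in M4, a log2 fold change of -0.78 (SE 0.18, adjusted p = 0.0242 from edgeR). SLC2A1 was at 168 and 187 CPM in M3 and at 254 and 268 in M4, a log2 fold change of 0.56 (SE 0.14, adjusted p = 0.0345 from edgeR), and lost its call without M3 replicate 1 (adjusted p = 0.0920 from edgeR). SLC16A3 (628 and 655 against 443 and 465 CPM) missed the threshold with -0.50 on the log2 scale (adjusted p = 0.0594 from edgeR). SLC2A3, at 31 and 16 counts against 2 in each library, was 13.5 times as high in M3 (95% exact interval 4.95 to 51.7), and lost its call without M3 replicate 1 (adjusted p = 0.114 from edgeR). VEGFA, EPAS1 and PGK1 were not called (adjusted p = 0.692, 0.904 and 0.0836 from edgeR).

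Ratios between paired isoenzymes or relatives within a library do not depend on library scaling. They are given per exon base. HK2 over HK1, the constitutive hexokinase, was 0.140 and 0.239 in the M1 libraries, 0.312 and 0.309 in those of M2, 0.618 and 0.863 in those of M3 and 0.442 and 0.307 in M4. HK1 itself was not called in any comparison and ranged from 253 to 453 CPM. PFKP over PFKM was 0.973 and 1.41 in the M1 libraries, 2.44 and 2.46 in those of M2, 3.59 and 1.91 in those of M3 and 4.53 and 4.84 in M4, so that the M4 libraries were above all others. LDHA over LDHB was 0.635 and 0.911 in M1 and 1.28 to 2.13 in the 6 libraries of the other lines. SLC16A3 over SLC16A1, which also imports lactate, was 0.855 and 0.445 in the M1 libraries, 0.941 and 0.918 in those of M2, 1.63 and 2.02 in those of M3 and 2.15 and 2.08 in M4. BNIP3 over its relative BNIP3L was 0.568 and 0.619 in M1 and 0.994 to 1.94 in the other lines. For each of these ratios M1 lay below all other libraries. With the doubted pair exchanged, this would hold for none of them. In other pairs M1 replicate 2 lay above at least 1 M4 library with the labels. These were HIF1A over EPAS1 (2.32, against 2.03 and 1.53 in M4), ALDOC over ALDOA (0.0160, against 0.0158 and 0.0252) and CA9 over CA12 (1.22, against 0.141 and 0.0191). With 2 libraries against 2, an exact two-sided permutation test cannot give a p below 0.333, and none was run.

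**Figure D5:**
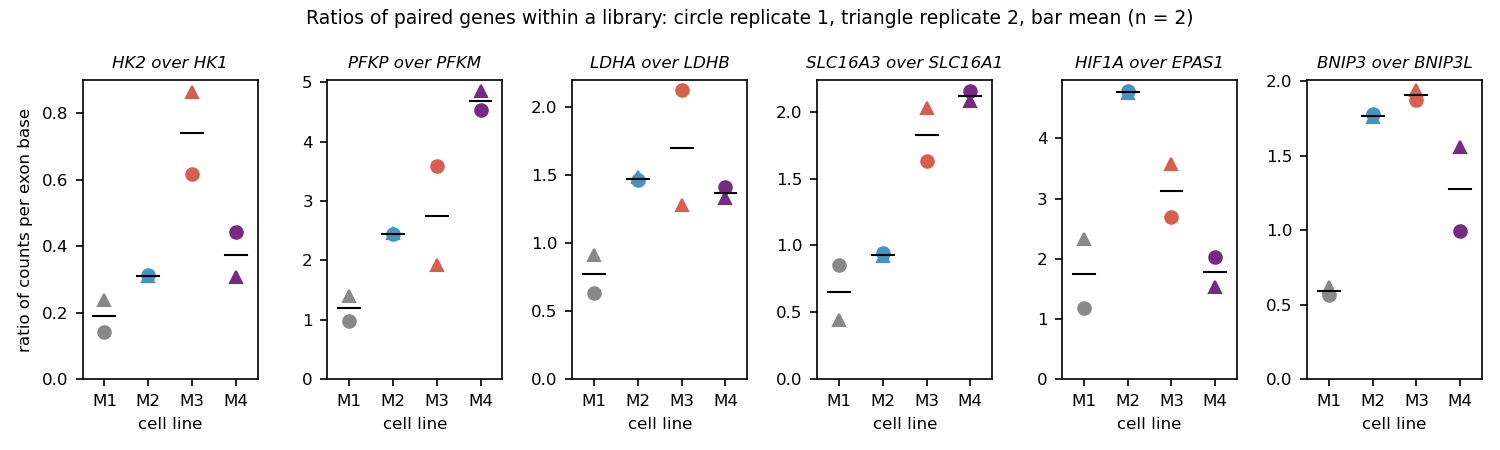
Ratios of counts per exon base between paired genes within each library, with circles for replicate 1, triangles for replicate 2 and bars for the mean of the 2 (axes start at 0). M1 is lowest for HK2 over HK1, PFKP over PFKM, LDHA over LDHB, SLC16A3 over SLC16A1 and BNIP3 over BNIP3L, and HIF1A over EPAS1 is highest in M2.

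By edgeR with the settings above, 14 members were not called in any comparison. They were HK1, PFKL, ALDOA, TPI1, GAPDH, PGAM1, ENO1, PFKFB3, VEGFA, ADM, BNIP3L, EGLN3, ANKRD37 and P4HA2. Of these, 11 were called in at least 1 comparison under some alternative, 5 by DESeq2, and HK1, PFKL and P4HA2 under none of the 16. Without M3 replicate 2, 8 members not called in M3 against M1 with all libraries were called, among them TPI1, GAPDH and ENO1. Several uncalled enzymes had both M2 libraries above M1 (for GAPDH 8677 and 8397 CPM against 4736 and 6678, and for ALDOA 2388 and 2338 against 1523 and 1532). Their log2 fold changes in M2 were 0.58 and 0.63 (adjusted p = 0.324 and 0.221 from edgeR). ANKRD37, an ankyrin-repeat HIF target, shares 909 bp of exon with UFSP2 on the opposite strand, whose counts were 246% of its own. P4HA2, the other collagen prolyl hydroxylase of the list, stayed between 70.6 and 109 CPM in all libraries. GAPDH has 29 processed pseudogenes with counts, which held 0.0792% of its own counts.

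Other genes of the pathway were taken from lists written with the members. Of 37 further hypoxia targets, 36 were tested, and 1 was called higher in M2, 9 higher and 1 lower in M3, and 7 higher and 9 lower in M4, each against M1. The shares of all genes were 3.37% higher in M2, 12.9% higher and 8.33% lower in M3, and 15.6% higher and 15.8% lower in M4. Against M3, 2 were called higher (7.05% of all genes) and 12 lower (9.72%) in M4, and the medians of the log2 fold changes were 0.32, 0.80, -0.25 and -0.89 in this order. ERO1A, an oxidase of the endoplasmic reticulum, was the 1 called in M2 (36.0 and 37.5 CPM in M1, 74.9 and 71.9 in M2, log2 fold change 0.998, adjusted p = 0.0390 from edgeR), and it was not called when any M1, M2 or M4 library was left out (0.97 to 1.03). With the doubted pair exchanged, the log2 fold change of ERO1A was -0.02, without a call. NDUFA4L2, a mitochondrial HIF target, was at 0.0967 and 1.92 CPM in the M1 libraries, 8.31 and 8.05 in those of M2, 78.3 and 12.5 in those of M3 and 0.264 and 0.512 in M4. It was called in M3 against M1 (log2 fold change 5.49, adjusted p = 0.0265 from edgeR) and in M4 against M3 (-6.89, adjusted p = 0.0206 from edgeR), with a high M3 replicate 1 and low M4 levels. Both calls of NDUFA4L2 were lost without M3 replicate 1 (3.64 and -5.02, adjusted p = 0.108 and 0.0743 from edgeR) and without either M2 library, and that against M3 also without either M4 library. The lipase inhibitor ANGPTL4, at 569 and 263 CPM in M3 against 4.50 and 26.9 in M1, was called higher by 4.73 on the log2 scale (adjusted p = 0.0202 from edgeR), or 4.08 and not called without M3 replicate 1 (adjusted p = 0.0650 from edgeR), and was lost without either M2 library. With the doubted pair exchanged, NDUFA4L2 and ANGPTL4 were at 3.43 and 3.49 in M3 against M1, without a call. The NDUFA4L2 call in M4 against M3 was also lost with it (-6.88). STC1, a secreted glycoprotein, was at 14.1 and 65.2 CPM in M1, 125 and 137 in M3, and 7.02 and 7.93 in M4. It was called lower in M4 than in M1 and in M3, at log2 fold changes of -2.41 and -4.13 (adjusted p = 0.0220 and 0.00912 from edgeR). Both calls of STC1 were lost without either M4 library, and that against M1 also without either M2 library.

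Of the 29 tested genes among 37 further genes of glucose and pyruvate metabolism, 2 were called lower in M2, 3 higher and 3 lower in M3, and 6 higher and 7 lower in M4, each against M1. The counts in M3 and M4 are close to the shares of all genes given above. The transporter SLC2A6 was at 1.87 and 0.403 CPM in M1, 34.5 and 21.5 in M3, and 67.2 and 48.7 in M4 (log2 fold changes 4.62 and 5.67, adjusted p = 0.00412 and 0.00145 from edgeR). The pyruvate dehydrogenase kinase PDK2 was at 27.5 and 23.5 CPM in the M1 libraries, 11.6 and 12.1 in those of M2, 8.92 and 8.13 in those of M3 and 2.04 and 1.49 in M4. It was called lower in each, with log2 fold changes of -1.10, -1.58 and -3.85 (adjusted p = 0.0290, 0.00294 and 0.000130 from edgeR), and PDK4 was called lower in M2 and M3 (-1.77 and -1.84, adjusted p = 0.0166 and 0.00480 from edgeR). In M2 both lost their calls without either M2 library (adjusted p = 0.167 to 0.278 from edgeR), and PDK2 also without M1 replicate 1. With the doubted pair exchanged, PDK2 and PDK4 were at -0.13 and -0.44 in M2 and at -1.20 and -1.41 in M3, without a call. These kinases inhibit pyruvate dehydrogenase, as does PDK1, whose log2 fold changes in M2 and M3 were above 0.

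Of 10 tested regulators of HIF among 11 listed, 0 were called in M2 by edgeR (2 at an unadjusted p under 0.05, and 1 called by DESeq2), 2 higher in M3 and 2 higher in M4 against M1, and 2 lower in M4 against M3. With 12.9%, 15.6% and 9.72% of all genes called in these directions, 2 of 10 is near the background. EGLN1, the main oxygen-sensing prolyl hydroxylase, was at 31.4 and 28.5 CPM in the M1 libraries, 46.5 and 47.1 in those of M2, 67.7 and 53.2 in those of M3 and 26.0 and 26.1 in M4. It was called higher in M3 (log2 fold change 1.01, adjusted p = 0.00451 from edgeR) and lower in M4 against M3 (-1.22, adjusted p = 0.00411 from edgeR). The proliferation list moved with the lines as well. Its 10 genes summed to 512 to 673 CPM in M1, 1690 and 1707 in M2, 1698 to 1903 in M3 and 1370 to 1870 in M4, and 8, 10 and 9 of them were called higher in M2, M3 and M4 against M1. With the doubted pair exchanged, CCNB1, CDK1 and RRM2 were not called in M2. Their log2 fold changes were then 0.004, -0.01 and -0.17, against 1.74, 1.72 and 1.75 with the labels. BIRC5, BUB1 and RRM2 were then not called in M3 (0.92, 0.88 and 0.75), nor MKI67, PLK1 and RRM2 in M4 (1.28, 0.69 and 0.66). The part of proliferation in the changes of the glycolytic genes was not tested.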

How the data were processed

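Poly A+ RNA-seq of 8 libraries, 2 biological replicates of each of M1, M2, M3 and M4, was analysed. The deposited values are expected counts per gene, which the authors estimated with RSEM on GENCODE v19 after trimming with Trimmomatic and alignment with STAR to hg19; tool versions and the use of strand are not given in the sources used here. Of the deposited counts 12.8% are not whole, and all were rounded. Symbols, exon lengths and coordinates came from GENCODE release 44 on GRCh37, which matched 94.7% of genes with a count; promoters came from RefSeq by symbol.

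Tests used edgeR 4.0.16 in R 4.3.3 (glmQLFit with robust estimation, TMM, filterByExpr, 1 coefficient per line, all 8 libraries), with Benjamini-Hochberg adjustment over 18431 genes. Each SE was derived from the F statistic. Fits were tested on simulated data with the same spread in every library, which does not cover the unequal spread of the lines. Library totals were 69669945 to 107350288, and intervals cover counting error only. Alternatives were DESeq2 1.42.0, RLE size factors, total counts, no filter, at least 100 counts in 2 libraries, a replicate block, only the 2 lines fitted, the doubted pair exchanged or left out, each library left out, and a fold above 2. Samples were grouped by title. Deviations of libraries with the same replicate number correlated at -0.0244 to 0.122 between lines, highest for M3 with M4. This cannot settle whether the numbers pair libraries, since labels of M1 and M2 are in doubt.

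The members, the gene lists and the tests were chosen with earlier results of these data known. Genes named with values are HIF1A, EPAS1, CA9, VEGFA, SLC2A1, HK2, LDHA, PGK1, up to 10 called members with the largest change per comparison, and up to 3 called genes per further list whose higher line had no replicate under 100 counts; other named members, the marker genes and the overlapping genes were chosen after their values were seen. In the supplementary expression table, held here in part, 268 genes served for the match of columns to libraries (r from 0.954 to 0.982). Python 3.11.15 with pandas 2.3.3 and matplotlib 3.10.9 served for summaries and plots. Marker lists for epithelial, basal, fibroblast, endothelial, immune and erythroid genes were checked. Their sums were 1372 to 4759 CPM for epithelial, 3820 to 10073 for basal, 6.43 to 74.3 for fibroblast, 1.06 to 24.6 for immune (all but 0.0366 CPM or less from CD14) and 0.110 to 4.90 for erythroid genes.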

Additional observations from a re-analysis of the deposited data

How the results depend on the processing

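The number of members called moved with the tool, the filter and the libraries used. In M2 against M1 it was 6, and 10 with total counts, 18 with DESeq2, 25 without the filter, 15 with only the 2 lines fitted, 0 with M1 replicate 2 and M2 replicate 1 exchanged or left out, and 0 to 18 with 1 library left out. In M3 against M1 it was 16, and 27 without the filter, 4 with only the 2 lines, 0 exchanged, 7 with both left out, and 6 to 22 with 1 library left out. In M4 against M1 it was 10, and 17 without the filter, 1 exchanged, 2 with both left out, and 4 to 13 with 1 library left out. In M4 against M3 it was 13, and 21 with DESeq2, 27 without the filter, 7 with only the 2 lines, 1 exchanged, 7 with both left out, 8 with a fold above 2 also required, and 2 to 22 with 1 library left out. With RLE size factors it was 6, 15, 11 and 13, and with at least 100 counts in 2 libraries 7, 16, 11 and 13, in this order of comparisons. Of the called members, SLC16A3 in M2 against M1 alone reversed with the exchange (log2 fold change -0.078). Among all 37 members, called or not, 11, 4, 11 and 0 reversed with it, for example SLC2A1 in M2 against M1 (0.55 to -0.09), ALDOA there (0.63 to -0.02), and in M4 against M1 LDHA (0.43 to -0.37) and PGK1 (0.17 to -0.38). Medians of the enzymes and of the other hypoxia targets shifted by more than the spread of the replicate medians in 10 fits and by less in 126. The cause of these shifts was not tested.

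With the replicate number as a block, 4, 11, 8 and 10 members were called in the 4 comparisons in this order. Deviations of libraries with the same number correlated at -0.0244 to 0.122 between lines, which does not settle whether the numbers pair them. With 2 libraries per line, these p-values rest on few degrees of freedom, and SLC2A3 and ENO2 are further limited by low counts.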
